A study of Homo sapiens with 6 samples.

Results

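The nuclear factor kappa B (NF-kappaB) subunits and the kinases that release them are described here in U251 cells, an established human glioblastoma line, with and without knockdown of TRAF2. The members were taken by name and number 9 of the 23002 genes measured. They are the canonical genes RELA, NFKB1, REL, IKBKB and IKBKG and the non-canonical genes MAP3K14, CHUK, NFKB2 and RELB. Messenger RNA was sequenced in 3 sh-NC samples, carrying a lentivirus with a control hairpin, and in 3 sh-TRAF2 samples. The sh-TRAF2 samples carried a lentivirus with a short hairpin RNA against TRAF2. Both groups were stable U251 lines made by lentiviral infection, and the methods describe selection with puromycin. No TNF-α treatment is named in the labels of these 6 samples. The design text gives the 3 samples of a group as biological replicates, but the sources used here do not say whether they came from separate infections, so p-values measure only the spread between these samples.

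In the canonical arm of NF-kappaB signalling, the IKK complex (kinases encoded by CHUK and IKBKB, scaffold NEMO encoded by IKBKG) marks inhibitory IkappaB proteins for destruction and so frees dimers such as RELA with the p50 made from NFKB1. In the non-canonical arm, the kinase NIK, encoded by MAP3K14, acts through CHUK to have the p100 product of NFKB2 trimmed to p52, which pairs with RELB. TRAF2, with TRAF3 and the ligases encoded by BIRC2 and BIRC3, keeps NIK protein low in resting cells, while in TNF signalling TRAF2 helps to recruit the IKK complex. Transcript levels, which are all that was measured here, do not report protein amounts, processing of p100 or kinase activity.

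The values are fragments per kilobase of transcript, scaled to the depth of each sample (FPKM). The reads behind them, recovered from the steps between values, came to between 33999558 and 36823562 per sample on genes. Pairs of samples from different groups correlated less across genes (Pearson r of log2 values 0.979 to 0.985) than pairs from the same group (0.993 to 0.995). TRAF2 stood at 15.1, 18.4 and 15.3 FPKM in sh-NC replicates 1, 2 and 3 and at 3.26, 3.22 and 3.33 FPKM in sh-TRAF2. It fell by 2.27 on the log2 scale (standard error 0.079, limma adjusted p = 1.16e-06).

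The sample type was checked against marker lists. Of the 9 glioblastoma line markers in the table, 7 were tested, with 3 higher and 1 lower. VIM rose from 1242 ± 38.9 to 1582 ± 24.8 FPKM (SD, n = 3) and NES from 5.35 ± 0.528 to 11.7 ± 0.227 FPKM, while EGFR fell from 31.8 ± 0.763 to 14.3 ± 0.607 FPKM (log2 fold changes 0.35, 1.12 and -1.14). GFAP rose from 0.467 ± 0.176 to 1.18 ± 0.552 FPKM (log2 fold change 1.11, limma adjusted p = 0.0382) with overlapping groups. NES, EGFR and GFAP passed the thresholds of the study given further on. SOX2, CD44 and TNC were expressed and not called, OLIG2 averaged 0.0444 and 0.0247 FPKM, and S100B was under 0.1 FPKM in every sample. All 3 endothelial and all 3 epithelial markers were under 0.1 FPKM in every sample. Of the 4 microglia and leukocyte markers in the table, PTPRC and CSF1R were under 0.1 FPKM in every sample and CD14 lay between 0.277 and 0.629 FPKM, but CD68 stood at 16.1 ± 0.363 and 15.9 ± 1.44 FPKM (SD, n = 3). The summed FPKM of that list ran from 16.4 to 17.2 in sh-NC and from 15.4 to 17.8 in sh-TRAF2. Of the 3 neuronal markers, RBFOX3 was under 0.1 FPKM in every sample, SYT1 fell from 25.1 ± 1.63 to 13.8 ± 0.533 FPKM (limma adjusted p = 1.95e-05), and SNAP25, too low for a test, stood at 0.297 ± 0.0910 and 0.598 ± 0.108 FPKM without overlap. The part of these marker changes in the results for the 9 members was not tested.

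All 9 members were expressed, and 7 of them changed by a modest amount after TRAF2 knockdown. RELA, REL, NFKB2 and RELB rose and NFKB1, CHUK and MAP3K14 fell, while IKBKB and IKBKG did not pass the test. The size of the called changes ran from 0.16 for NFKB1 to 0.42 for CHUK on the log2 scale. The comparison used limma on log2(FPKM + 0.1) over 11870 genes, those averaging 0.5 FPKM or more, and a gene was called at a Benjamini-Hochberg adjusted p under 0.05. All 9 members entered that test. Fold changes on this scale come out too small for low genes, and in bulk RNA a change in every cell cannot be told apart from a larger one in some of the cells.

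The background is high in this comparison. Among all genes tested, 44.6% were called, 23.7% as higher and 20.9% as lower. Against that, 7 of the 9 members were called, 4 as higher and 3 as lower. The 3 values of one group lay wholly on one side of the other group's for 8 members and for 55.5% of all genes tested. At the thresholds of the study, an absolute log2 fold change above 1 with the same adjusted p, 1.72% of genes were called. No member came near this fold, the largest change in size being that of CHUK, at -0.42, or -0.45 under the alternative that gave most. The median log2 fold change was 0.14 over the 9 members, which is the value of IKBKG, and 0.02 over all genes tested.

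**Figure D1:**
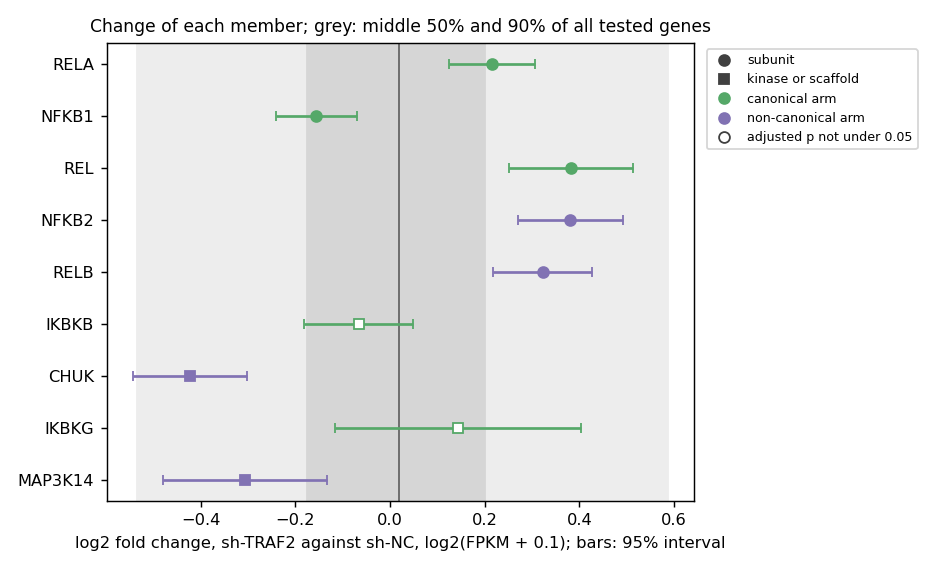
The log2 fold change of each member (sh-TRAF2 against sh-NC, limma on log2(FPKM + 0.1)) is plotted with its 95% interval, circles for subunits, squares for kinases and scaffold, open where not called, over grey bands that hold the middle 50% and 90% of all genes tested. The values run from -0.42 for CHUK to 0.38 for REL and NFKB2, and the intervals of IKBKB and IKBKG include 0.

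Some genes of NF-kappaB subunits are known for being under NF-kappaB control themselves, so promoters were read for kappaB letters. RefSeq promoters (GRCh38.p14, from 250 bases before to 50 bases after a start) were found for 7 members, with 14 promoters in all. The kappaB consensus, a motif of 10 bases searched on both strands, was matched in 4 of these promoters, which belong to REL, NFKB1 and NFKB2. Of all 35116 promoters, 5.91% held a match, and so did 8.86% of the 9785 tested genes that had a promoter. No match was found in the windows of RELA, CHUK, MAP3K14 and IKBKG, which says only that these letters are not in those windows. RELB and IKBKB were not analysed here for promoters. Matches are shown for the 3 subunit genes that hold them, 5′ to 3′ on the strand of the gene, with the matched bases in capitals. All lie on the plus strand of the genome, at chr2:60881527-60881536 for REL, chr4:102501310-102501319 for NFKB1, and chr10:102394471-102394480, chr10:102394500-102394509, chr10:102395529-102395538 and chr10:102395684-102395693 for sites 1 to 4 of NFKB2.
REL: cgtcagccgcGGGAAATTCCcctcccgcca
NFKB1: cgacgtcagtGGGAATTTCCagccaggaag
NFKB2 site 1: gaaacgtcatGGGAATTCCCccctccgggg
NFKB2 site 2: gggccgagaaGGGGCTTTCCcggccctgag
NFKB2 site 3: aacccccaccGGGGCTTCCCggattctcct
NFKB2 site 4: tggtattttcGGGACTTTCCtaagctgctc
The REL match began 47 bases before the start and the NFKB1 match 49 bases before it. Those of NFKB2 began 107, 78, 176 and 21 bases before the start, the first pair in one promoter and the last pair in another. The REL window and site 1 of NFKB2 each hold a further match shifted by 1 base on the other strand. Of the 3 genes with a match, REL and NFKB2 were called higher and NFKB1 lower.

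RELA encodes p65, the transactivating partner of the most studied canonical dimer (chr11:65653596-65663094, minus strand, GRCh38). RELA stood at 51.3, 48.0 and 51.6 FPKM in sh-NC and at 58.7, 58.6 and 57.7 FPKM in sh-TRAF2. The 3 sh-TRAF2 values lay close together and above every sh-NC value. The mean rose from 50.3 ± 2.03 to 58.4 ± 0.560 FPKM (SD, n = 3), or by 16.05%. Its log2 fold change was 0.22 (standard error 0.040, 95% interval 0.12 to 0.31, limma adjusted p = 0.00292). Reads ran from 4371 to 5207 per sample. By the two-sided exact permutation test, each of the 8 members with separated groups had p = 0.1, the smallest that 3 samples against 3 allow. Groups were likewise separate for 55.5% of all genes tested.

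NFKB1 encodes p105, the precursor of p50 (chr4:102501329-102617302, plus strand). NFKB1 stood at 56.5, 54.6 and 53.4 FPKM in sh-NC and at 49.4, 50.1 and 48.2 FPKM in sh-TRAF2, and every sh-TRAF2 value lay below every sh-NC value. The mean fell from 54.8 ± 1.54 to 49.2 ± 0.957 FPKM (SD, n = 3). NFKB1 thus fell by 10.2%. The log2 fold change of -0.16 (standard error 0.037, 95% interval -0.24 to -0.07, limma adjusted p = 0.0101) was the smallest in size among the 7 called members. NFKB1 was the only subunit gene of the 5 that fell.

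REL encodes c-Rel, a subunit best known from lymphoid cells (chr2:60881521-60931610, plus strand). REL stood at 3.93, 3.86 and 3.91 FPKM in sh-NC and at 5.20, 5.18 and 4.97 FPKM in sh-TRAF2. The groups were far apart relative to their own spread, with means of 3.90 ± 0.0382 and 5.11 ± 0.127 FPKM (SD, n = 3), a rise of 31.2%. Its log2 fold change was 0.38 (standard error 0.057, 95% interval 0.25 to 0.51, limma adjusted p = 9.97e-04). REL was the lowest of the members per length in both groups, yet 1572 to 2062 reads per sample lay behind its values, since the transcript length used in its FPKM was 11393 bases. In the GENCODE annotation its exons share 5702 bases with AC010733.2 on the same strand, so the source of reads there is uncertain.

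NFKB2 encodes p100, the precursor of p52 and the inhibitor that holds RELB in the cytoplasm (chr10:102394110-102402529, plus strand). NFKB2 stood at 112, 116 and 103 FPKM in sh-NC and at 139, 148 and 145 FPKM in sh-TRAF2. Every sh-TRAF2 value exceeded every sh-NC value, and sh-NC replicate 3 was the lowest of the 6. The mean rose from 110.67 ± 6.85 to 144.0 ± 4.31 FPKM (SD, n = 3), by 30.1%. Its log2 fold change was 0.38 (standard error 0.049, 95% interval 0.27 to 0.49, limma adjusted p = 4.67e-04). With 14470 to 19180 reads per sample it was the most abundant member, at percentile 96.2 of the mean FPKM of all genes tested.

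RELB encodes the partner of p52 (chr19:45001430-45038198, plus strand). RELB stood at 72.8, 72.3 and 67.3 FPKM in sh-NC and at 84.5, 91.8 and 89.5 FPKM in sh-TRAF2. As for NFKB2, sh-NC replicate 3 was the lowest of the 6 samples and the groups did not overlap. The mean rose from 70.8 ± 3.04 to 88.6 ± 3.72 FPKM (SD, n = 3), by 25.1%, with a log2 fold change of 0.32 (standard error 0.046, 95% interval 0.22 to 0.43, limma adjusted p = 8.00e-04).

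**Figure D2:**
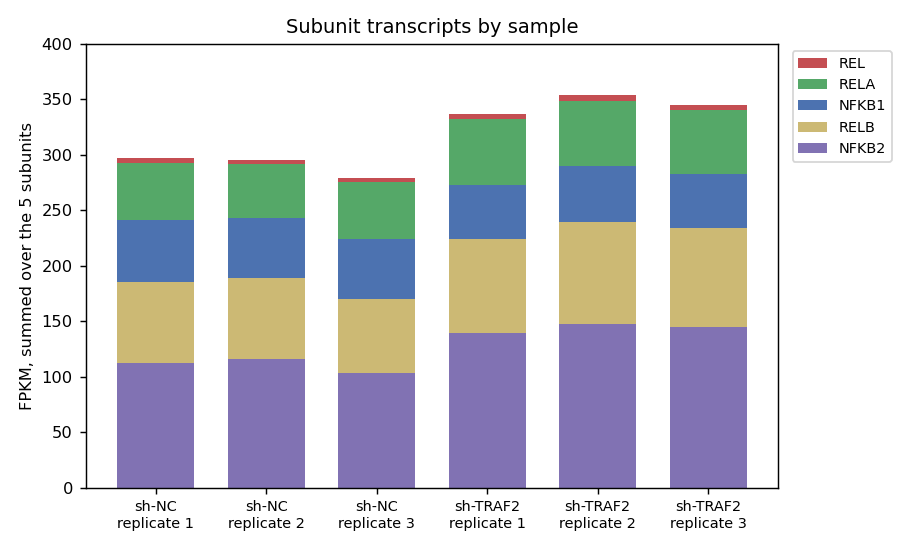
FPKM of the 5 subunit genes is stacked in 1 bar for each of the 6 samples. The NFKB2 segment runs from 103 to 116 in sh-NC and from 139 to 148 in sh-TRAF2, while that of NFKB1 is thinner in sh-TRAF2, at 48.2 to 50.1 against 53.4 to 56.5.

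The makeup of the subunit transcripts shifted towards NFKB2. The summed FPKM of the 5 subunit genes was 290.5 ± 9.65 in sh-NC and 345 ± 8.21 in sh-TRAF2 (SD, n = 3). NFKB2 made up 38.1% ± 1.29 of this sum in sh-NC and 41.7% ± 0.322 in sh-TRAF2, and NFKB1 made up 18.9% ± 0.338 and 14.3% ± 0.348. For both genes the shares of the groups did not overlap, where the FPKM of 55.5% of all genes tested did not overlap either. The 5 shares are parts of the same sum and so are not independent. Their levels also depend on the transcript lengths used in the FPKM. RELB took 24.4% ± 0.242 and 25.6% ± 0.508, RELA 17.3% ± 1.12 and 16.9% ± 0.445, and REL 1.34% ± 0.0503 and 1.48% ± 0.0535. The RELA shares overlapped between the groups, whereas those of RELB and REL were higher in every sh-TRAF2 sample.

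The FPKM ratio of NFKB2 to NFKB1, the genes of the 2 precursor proteins, was 1.99, 2.13 and 1.93 in sh-NC and 2.82, 2.95 and 3.00 in sh-TRAF2. All 3 ratios in sh-TRAF2 exceeded those in sh-NC, with a difference of 0.54 on the log2 scale. This separation follows from the genes themselves, since NFKB2 was higher and NFKB1 lower in every sh-TRAF2 sample. A test of this ratio would therefore add nothing, and no p is given for it. The ratio of RELB to RELA was 1.41 ± 0.103 in sh-NC and 1.52 ± 0.0689 in sh-TRAF2 (SD, n = 3), and the groups overlapped (log2 difference 0.11, exact permutation p = 0.2). RELB and RELA, the partners of the processed proteins, thus both rose, and their ratio did not separate the groups. The ratio of REL to RELA was 0.0776 in sh-NC and 0.0876 in sh-TRAF2, without overlap and with a log2 difference of 0.18 (exact permutation p = 0.1).

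Of the 4 genes of kinases and scaffold, MAP3K14 and CHUK were called lower and IKBKB and IKBKG did not pass the test, with a median log2 fold change of -0.19. Of the 5 subunit genes, 4 were called higher and 1 lower, with a median of 0.32. This grouping into subunits and kinases was chosen after the values were seen, and over all genes tested 23.7% were called higher and 20.9% lower.

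MAP3K14 encodes NIK, the kinase that starts the non-canonical arm and whose protein is held low by the complex that contains TRAF2 (chr17:45263119-45317145, minus strand). MAP3K14 stood at 13.4, 13.6 and 11.9 FPKM in sh-NC and at 9.66, 11.4 and 10.3 FPKM in sh-TRAF2. The highest sh-TRAF2 value, in replicate 2, lay just under the lowest sh-NC value, in replicate 3. The mean fell from 13.0 ± 0.920 to 10.5 ± 0.890 FPKM (SD, n = 3), so that MAP3K14 fell by 19.2%. Its log2 fold change was -0.31 (standard error 0.076, 95% interval -0.48 to -0.13, limma adjusted p = 0.0119). MAP3K14 shares 713 exonic bases with MAP3K14-AS1 on the opposite strand, and the use of strand in counting is not given in the sources used here. MAP3K14-AS1 itself had 10 to 35 reads per sample, against 1555 to 2251 for MAP3K14.

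CHUK encodes IKKα, which serves both arms and is the kinase that NIK acts through (chr10:100188298-100229619, minus strand). CHUK stood at 7.38, 7.02 and 7.43 FPKM in sh-NC and at 5.42, 5.34 and 5.46 FPKM in sh-TRAF2. The sh-TRAF2 values were tightly grouped and lay well below all sh-NC values. The mean fell from 7.28 ± 0.223 to 5.41 ± 0.0629 FPKM (SD, n = 3), so that CHUK fell by 25.7%. Its log2 fold change of -0.42 (standard error 0.053, 95% interval -0.54 to -0.30, limma adjusted p = 4.01e-04) was at percentile 8.14 of all genes tested, and CHUK had the smallest adjusted p of the 9 members. CHUK shares 37 exonic bases with ERLIN1 on the same strand, and ERLIN1 fell by 0.23 on the log2 scale (limma adjusted p = 0.00311). It also shares 77 exonic bases with AL138921.2 on the opposite strand, which is not listed by that name among the genes measured.

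IKBKB encodes IKKβ, the main canonical IkappaB kinase (chr8:42271302-42332653, plus strand). IKBKB stood at 7.10, 6.89 and 7.22 FPKM in sh-NC and at 6.64, 6.81 and 6.80 FPKM in sh-TRAF2. The sh-TRAF2 values lay below those of sh-NC without overlap, but by little. The log2 fold change was -0.07 (standard error 0.050, 95% interval -0.18 to 0.05, limma adjusted p = 0.318), so IKBKB was not called and the interval reaches from a small fall to a smaller rise. The FPKM ratio of CHUK to IKBKB, the genes of the paired IKK kinases, was 1.04, 1.02 and 1.03 in sh-NC and 0.817, 0.784 and 0.803 in sh-TRAF2. The FPKM of CHUK was thus near that of IKBKB in all sh-NC samples and below it in all sh-TRAF2 samples (log2 difference -0.36, two-sided exact permutation p = 0.1). The transcript lengths used in these FPKM were 7204 bases for CHUK and 5931 for IKBKB. The level of the ratio depends on these lengths, whereas its change between the groups does not. The ratio of MAP3K14 to CHUK was 1.78 ± 0.169 in sh-NC and 1.94 ± 0.183 in sh-TRAF2 (SD, n = 3), and the groups overlapped (exact permutation p = 0.5).

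**Figure D3:**
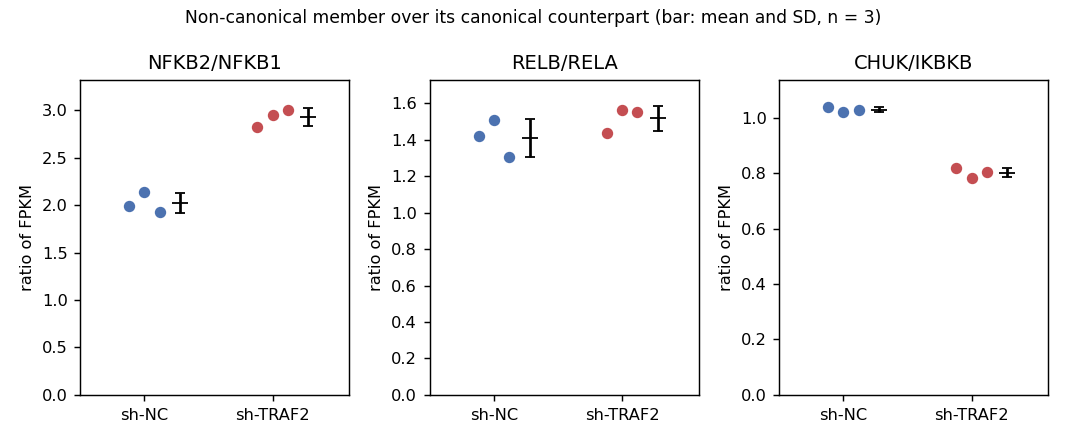
The FPKM ratio of a non-canonical member to its canonical counterpart is plotted for each sample on a linear axis from 0, with points for the samples and a bar for the mean and SD (n = 3). NFKB2 over NFKB1 runs from 1.93 to 2.13 in sh-NC and from 2.82 to 3.00 in sh-TRAF2, CHUK over IKBKB averages 1.03 in sh-NC and 0.801 in sh-TRAF2, and RELB over RELA overlaps between the groups.

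IKBKG encodes NEMO, the regulatory scaffold without which the canonical IKK complex does not respond (chrX:154541199-154565046, plus strand). IKBKG stood at 7.19, 6.90 and 6.81 FPKM in sh-NC and at 9.41, 7.27 and 6.67 FPKM in sh-TRAF2. The sh-TRAF2 samples disagreed among themselves, with replicate 1 the highest of all 6 samples and replicate 3 the lowest. The log2 fold change was 0.14 (standard error 0.11, 95% interval -0.12 to 0.40, limma adjusted p = 0.334, exact permutation p = 0.6), and without sh-TRAF2 replicate 1 it was -9.96e-06. IKBKG rested on 614 to 860 reads per sample, the fewest of the members. IKBKG has a near-identical pseudogene copy nearby, so its reads are uncertain.

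**Figure D4:**
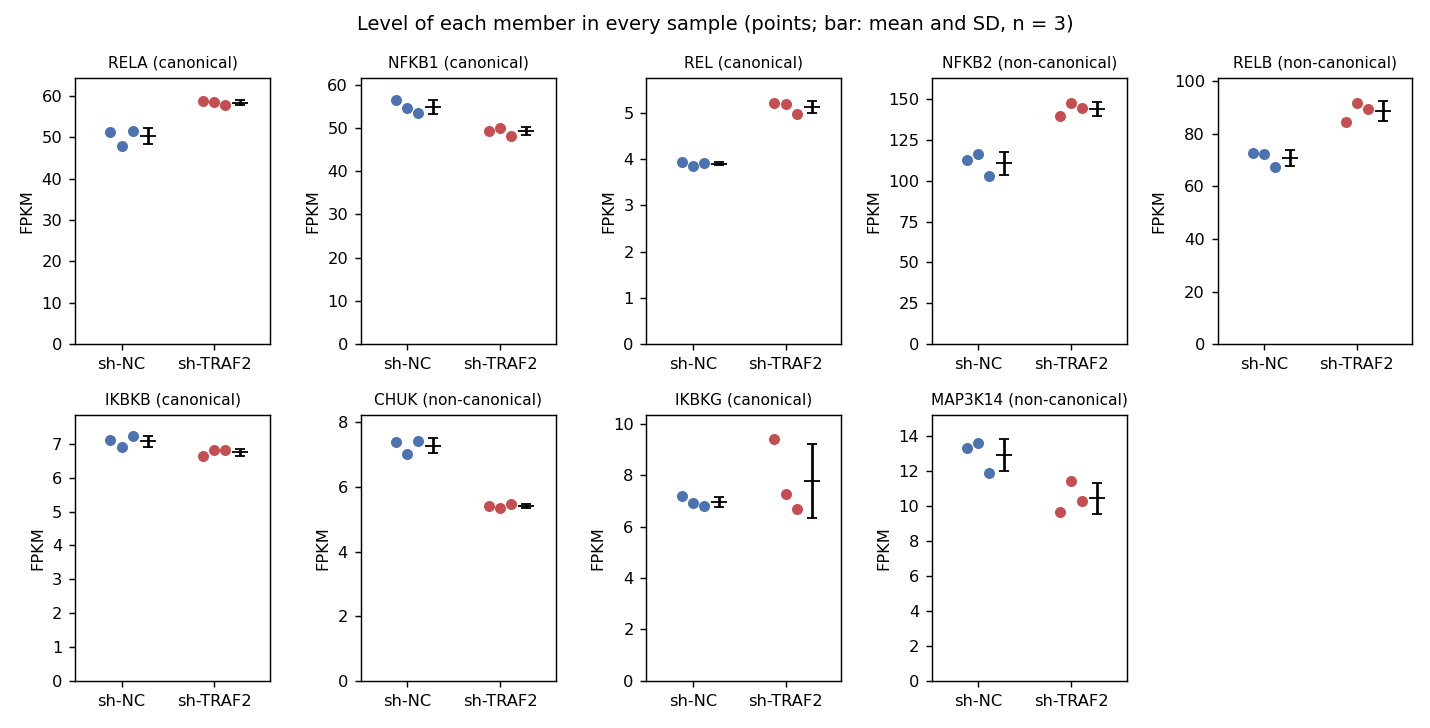
FPKM of each of the 9 members is plotted in a panel of its own on a linear axis from 0, with a point for each sample and a bar for the mean and SD (n = 3). The groups are separate for 8 members, as they are for 55.5% of all genes tested. They overlap for IKBKG, where sh-TRAF2 replicate 1 stands at 9.41 and the other sh-TRAF2 samples at 7.27 and 6.67.

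Per length, the members fell into an upper set of 4 subunit genes and a lower set with the kinases, the scaffold and REL. In sh-NC the order of mean FPKM was NFKB2, RELB, NFKB1, RELA, MAP3K14, CHUK, IKBKB, IKBKG and REL. The values of CHUK and IKBKB overlapped, as did those of IKBKB and IKBKG, and the other neighbours were apart. In sh-TRAF2, RELA stood above NFKB1, and CHUK had dropped from rank 6 to rank 8, below IKBKG and IKBKB, whose values overlapped. Ranks between genes depend on the transcript lengths used in the FPKM. NFKB2, RELB, RELA and NFKB1 lay at percentiles 96.2, 93.5, 89.9 and 89.4 of the mean FPKM of all genes tested, and REL at percentile 37.0.

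Taken by arm, the canonical genes had 2 members called higher, 1 lower and 2 not called, and the non-canonical genes had 2 higher and 2 lower, where 44.6% of all genes tested were called. The median log2 fold change was 0.14 for the 5 canonical members and 0.01 for the 4 non-canonical members. The canonical median is the value of IKBKG itself, and leaving out sh-TRAF2 replicate 1 gave -9.96e-06, while leaving out replicate 3 of that group gave 0.22. The non-canonical median ran from -0.04, with sh-NC replicate 3 left out, to 0.05, with sh-TRAF2 replicate 1 left out, and so on both sides of 0. In the non-canonical arm, the transcripts of the effectors NFKB2 and RELB rose while those of the kinases MAP3K14 and CHUK fell. The mean of log2(FPKM + 0.1) over the non-canonical members was 4.88 ± 0.06 in sh-NC and 4.87 ± 0.05 in sh-TRAF2 (SD, n = 3), with overlapping values. Over the canonical members it was 3.82 ± 0.03 and 3.92 ± 0.06, and every sh-TRAF2 sample lay above every sh-NC sample. The difference between the arms was 1.06 ± 0.06 and 0.95 ± 0.10, with overlap, and its change of -0.11 ran from -0.14, with sh-NC replicate 3 left out, to -0.05, with sh-TRAF2 replicate 1 left out. On the linear scale, where NFKB2 and RELB weigh most, the summed FPKM of the non-canonical members was 202 ± 10.5 in sh-NC and 248 ± 8.84 in sh-TRAF2, without overlap, and that of the canonical members was 123 ± 2.89 and 127 ± 2.58, with overlap. No p is given for these scores, since the members were chosen with results known.

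Hairpins can also lower transcripts that match them in part. Of the TRAF2 target sequences, only a stretch of the first, sh-TRAF2#1, was looked for in the 3′UTRs of the members. No part of the second, sh-TRAF2#2, was searched for in them. The study lists 2 TRAF2 hairpins, and the sources used here do not say which was sequenced. Both targets lie in coding exons of TRAF2 transcript TRAF2-201 (GENCODE 29, GRCh38, plus strand), sh-TRAF2#1 in exon 7 at chr9:136916579-136916599 and sh-TRAF2#2 in exon 8 at chr9:136920480-136920500. An earlier scan of these same data had singled out the heptamer at bases 10 to 16 of the first target, counted from its 5′ end, among 3′UTRs of lowered transcripts, so what follows is a description and no independent evidence. The targets are printed with that heptamer in capitals, followed by the sites in the 3′UTRs of the members that hold it.
sh-TRAF2#1 target: cccttgcagATTCCACgccat
sh-TRAF2#2 target: ctggaccaagacaagattgaa
NFKB1 3′UTR: aaagccctaaaATTCCACtgcgttgtccac
CHUK 3′UTR: aatcattttaaATTCCACtgaaaatttaac
The heptamer was found in the longest annotated 3′UTR of 2 of the 9 members, once each. In NFKB1 it lies at base 43 of a 3′UTR of 708 bases (chr4:102616637-102616643, plus strand). In CHUK it lies at base 564 of 1300 (chr10:100189028-100189034, minus strand). NFKB1 and CHUK were both called lower. MAP3K14, the other member that fell, had no match in a 3′UTR of 1517 bases, and the longest 3′UTR of the set, that of REL with 9075 bases, had none. Among the 10822 tested genes with a 3′UTR, 10.7% held the heptamer, with a median log2 fold change of -0.11, against 0.02 for those without it. A longer 3′UTR has more room for a match, and the lengths of genes with and without it were not compared. Whether the hairpin acted on NFKB1 or CHUK was not tested.

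The genes whose pattern over the 6 samples was most like that of CHUK, by Pearson correlation of log2(FPKM + 0.1), were KIF26B, PDE1C and TWF1, each with r = 0.999. Their log2 fold changes were -1.22, -0.47 and -1.05. With 6 samples in 2 groups, such an r describes mostly the step between the groups.

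The surrounding pathway genes were taken from lists and are given by their counts, to be read beside the 23.7% of all genes tested that were called higher and the 20.9% called lower. Among the 5 genes of the ubiquitin ligase complex that controls NIK, 1 was called higher and 2 lower, TRAF2 included. BIRC2, the ligase cIAP1, rose from 54.97 ± 1.35 to 70.3 ± 0.788 FPKM (SD, n = 3, log2 fold change 0.35, limma adjusted p = 1.23e-04). BIRC3, the ligase cIAP2 and a known NF-kappaB target, fell from 71.3 ± 6.10 to 51.5 ± 2.68 FPKM (log2 fold change -0.47, limma adjusted p = 7.54e-04). The related ligases thus moved in opposite directions. TRAF3, which bridges NIK to the complex, stood at 10.7 ± 0.491 and 10.8 ± 0.124 FPKM (limma adjusted p = 0.845) and was not called. It was named after its values were seen.

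Of 22 IKK-related kinases and upstream signalling genes, 21 were tested, with 7 higher, 6 lower and a median log2 fold change of -0.02 (all genes tested: 23.7% higher, 20.9% lower, median 0.02). HSP90AA1, a chaperone that the IKK kinases depend on, rose from 127 ± 3.59 to 222 ± 4.79 FPKM (SD, n = 3, log2 fold change 0.81, limma adjusted p = 2.66e-06). TAB3, an adaptor of the kinase TAK1, fell from 3.92 ± 0.101 to 2.32 ± 0.0198 FPKM (log2 fold change -0.73, limma adjusted p = 8.27e-05). TANK, an adaptor of TRAF proteins and TBK1, rose by 0.50 on the log2 scale (limma adjusted p = 1.50e-04).

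Among the 15 IkappaB proteins and feedback inhibitors, 6 were higher and 2 lower, with a median of 0.11 (all genes tested: 23.7% higher, 20.9% lower, median 0.02). NFKBIB, encoding IkappaBβ, and NFKBIZ, encoding the nuclear IkappaBζ, rose by 0.45 and 0.48 on the log2 scale (limma adjusted p = 8.42e-04 and 6.66e-04). NKIRAS1, which binds IkappaB proteins, fell by 0.63 (limma adjusted p = 8.76e-05). The classical feedback inhibitors NFKBIA and TNFAIP3, named after their values were seen, had log2 fold changes of -0.08 and -0.12 (limma adjusted p = 0.258 and 0.0956) and were not called. Of the 7 genes of the machinery that processes p100 and p105 and destroys IkappaB, SKP1 and CUL1, parts of the same ubiquitin ligase, rose by 0.20 and 0.18 (limma adjusted p = 0.00881 and 0.0118). The other 5 were not called, among them FBXW7, which recognises p100, at -0.14 (limma adjusted p = 0.211).

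Of 13 receptors and ligands that signal through NIK, 11 were in the table and 3 reached the level needed for a test, and these 3 were not called. LTBR, the lymphotoxin beta receptor, had a log2 fold change of -0.05 (limma adjusted p = 0.398). TNFRSF12A, the receptor Fn14, was abundant at 570 ± 35.7 and 561 ± 29.1 FPKM (SD, n = 3, limma adjusted p = 0.761), and its ligand TNFSF12 had a log2 fold change of -0.22 (limma adjusted p = 0.300). With sh-NC replicate 3 left out TNFSF12 was called, at -0.42 (limma adjusted p = 0.0140), and with sh-NC replicate 1 left out it stood at -0.05. The remaining 8 averaged under 0.5 FPKM. Of 6 non-canonical target genes, 2 were in the table and 0 were expressed enough for a test, so this list gave no readout of that arm here. Other targets of the arm were not examined.

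Of 28 canonical target genes, 24 were tested, with 11 higher, 4 lower and a median log2 fold change of 0.19 (all genes tested: 23.7% higher, 20.9% lower, median 0.02). The list shares NFKBIA, TNFAIP3 and BIRC3 with those above. IL1B and CCL20, encoding a cytokine and a chemokine, rose by 1.71 and 1.06 on the log2 scale (limma adjusted p = 8.18e-06 and 2.23e-06). CXCL10, a chemokine also driven by interferon, rose by 1.95 (limma adjusted p = 0.00573) with a wide spread, from 6.43 ± 3.36 to 23.5 ± 8.12 FPKM (SD, n = 3). CCL2, the monocyte chemokine, fell from 131 ± 5.13 to 56.6 ± 6.75 FPKM (log2 fold change -1.22, limma adjusted p = 1.86e-05). These were the 4 genes of the list past the thresholds of the study, which no member passed. They were picked for the size of their change, and 9 of the 24 tested genes of the list were not called.

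**Figure D5:**
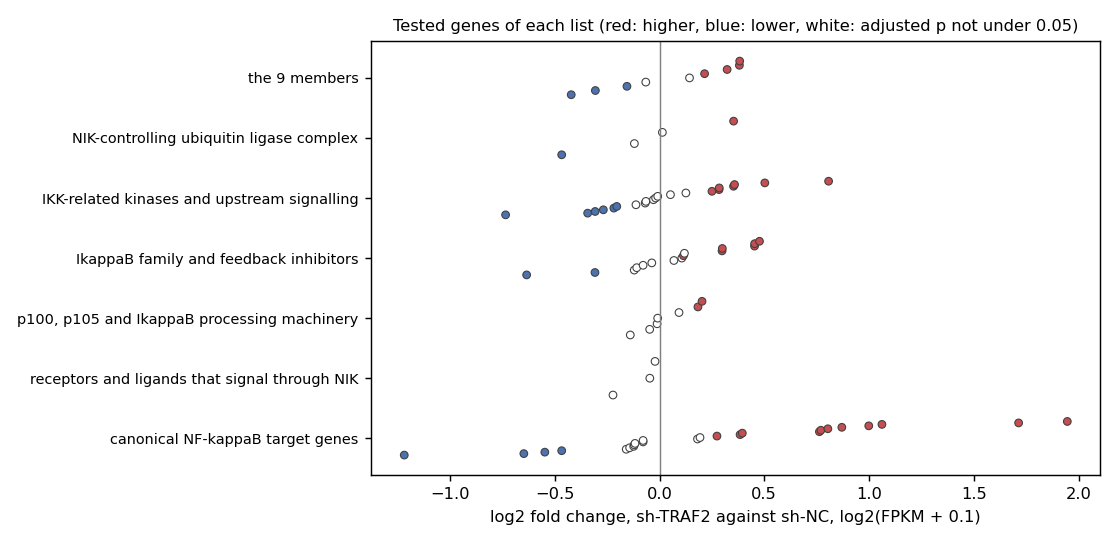
The log2 fold change of each tested gene is plotted by pathway list, in red where called higher, blue where called lower and white where not called, with TRAF2, at -2.27, left out of the NIK complex. The canonical targets spread from -1.22 for CCL2 to 1.95 for CXCL10, while the 9 members lie between -0.42 and 0.38.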

How the data were processed

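RNA from U251 cells (3 sh-NC and 3 sh-TRAF2 samples, grouped by their labels) was sequenced, and the authors deposited FPKM values in 1 table, where each of the 6 samples has a column and 0 further columns hold per-sample values. Per the labels, HISAT2, HTSeq, R 3.2.0 and DESeq2 were named in the submitters' processing notes, with no role stated. The genome build and annotation are not given in the sources used here. FPKM divides fragments by transcript length and by the total of the sample, so a value depends on the length used and on all other genes.

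From the deposited FPKM, log2(FPKM + 0.1) was compared with limma 3.58.1 in R 4.3.3 (eBayes with a trend, two-sided) over 11870 genes averaging 0.5 FPKM or more, with Benjamini-Hochberg adjustment. Exact permutation tests ran over the 20 assignments of samples to groups. Reads were recovered as the smallest whole numbers fitting each gene's FPKM steps. Where only 1 sample had reads (2643 genes), the lowest possible count was taken. The total of sh-NC replicate 1 was then searched for so that transcript lengths came out whole. With that total, lengths were whole within 0.01 base for 99.2% of the 8401 genes with over 500 reads. Since the search aimed at this, the share is no separate check of the lengths. The recovery of reads and the limma fit were tested on simulated data, and the length step was not. Alternatives changed the pseudocount to 0.01 or 1 and the filter to none or to 1 FPKM, or used TPM, quantile normalization, eBayes without a trend, limma-voom on recovered reads, the replicate number as a block, and each sample left out. Annotation came from GENCODE 29 and promoters from RefSeq. Other steps ran in Python 3.11.15 with pandas 2.3.3, numpy 2.4.6, matplotlib 3.10.9 and scipy 1.17.1.

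The members and lists were chosen with earlier results of these data known. Named are the 9 members, TRAF2, the 3 genes of each list with the smallest adjusted p, list genes past the study's thresholds, and the 3 genes most like the member with the smallest adjusted p. Markers, overlapping genes, TRAF3, NFKBIA and TNFAIP3 are named beside these. A further gene, which also overlaps a member, is not reported here.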

Additional observations from a re-analysis of the deposited data

How the results depend on the processing

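All 7 called members kept their call and direction under each of the 15 alternatives, and IKBKB and IKBKG were called under none. The log2 fold change of NFKB1 ran from -0.22 to -0.13 (limma adjusted p 0.00164 to 0.0458) and that of MAP3K14 from -0.37 to -0.25 (adjusted p 0.00368 to 0.0425). With each sample left out, IKBKG ran from -9.96e-06, without sh-TRAF2 replicate 1, to 0.25, without sh-TRAF2 replicate 3. Likewise the median of the canonical arm ran from -9.96e-06, without sh-TRAF2 replicate 1, to 0.22, without sh-TRAF2 replicate 3. TNFRSF12A, at -0.02, ran from -0.067, without sh-NC replicate 3, to 0.0234, without sh-NC replicate 2, with 0.01 where sh-TRAF2 replicate 1 was left out, and TNFSF12 ran from -0.42 (limma adjusted p = 0.0140), without sh-NC replicate 3, to -0.05 (adjusted p = 0.791), with sh-NC replicate 1 left out. The cause was not tested. At the study's thresholds 204 genes were called, against 87 with a pseudocount of 1, which shrinks the changes of low genes, and 413 with limma-voom on the recovered reads, and 182 to 253 with a sample left out. The adjusted p alone called 5297 genes and 4282 to 5759 under the alternatives.

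With the replicate number as a block, 5451 genes and 7 members were called. The deviations of same-numbered samples correlated at -0.0812, 0.0722 and 0.0728, and not every sample correlated best with its own number. Values this weak cannot settle whether same-numbered samples share more than a number, and the sources used here do not say. IKBKG had the fewest reads among the members, 614 to 860 per sample. Its values also spread more in sh-TRAF2, with an SD of 1.44 FPKM, than in sh-NC, with 0.199.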
